A study of Mus musculus with 4 samples.

Results

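The cytosolic ribosomal protein genes were followed in a mouse mammary tumour line that had become resistant to a green tea polyphenol. The members were all genes whose probe sets carry exactly 1 symbol, beginning with Rpl or Rps and a digit, or with Rplp; the S6 kinase genes, whose symbols begin with Rps6k, were left out. Each gene was represented by its brightest probe set over the 4 arrays. This gave 48 genes, read by 99 probe sets, out of 12393 genes that carry 1 symbol on the array. Of the 48, 26 belong to the large and 22 to the small ribosomal subunit by their symbols, and RefSeq lists 46 as protein coding. The other two, Rps4l and Rps15a-ps6, are listed there as transcribed pseudogenes.

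The resistant cells are a pool of NF639 cells resistant to epigallocatechin 3-gallate (EGCG), measured on 2 arrays (Resistant 1 and 2). They were set against the parental NF639 population, also on 2 arrays (Original 1 and 2). NF639 is a breast cancer cell line from a mammary tumour of a mouse with an ErbB2 transgene under the MMTV promoter, and both groups carry it. The labels give neither a dose of EGCG nor whether it was present at harvest, and they do not say that arrays of the same number were handled together. The resistant cells are 1 pool, and the series text speaks of RNA from separate experiments, so p-values measure the spread between 2 RNA samples of each population. For each probe set limma took this spread in part from its own arrays (2 residual degrees of freedom). The other part came from a trend over all tested probe sets (8.3 prior degrees of freedom).

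The luminal epithelial markers of the line were dim. Of 10 markers of mammary epithelium, 1, Erbb2, passed the filter on dim probe sets, and their summed signal was 432 and 478.4 on the resistant arrays, against 482.5 and 466.4 on the original arrays. Epcam had a mean signal of 3.28 and Cdh1 of 11.7. Of 9 fibroblast markers 6 passed, with summed signals of 8064.8 and 6095.1 on the resistant arrays and 7552.7 and 6339.5 on the original arrays. Their log2 fold changes (Resistant minus Original) ran from -2.15 to 1.99, and 0 of the 6 passed limma's test (smallest adjusted p = 0.0500409, for Col3a1). With the replicate number as a block 5 of the 6 passed, Col3a1, Col1a1 and Pdgfra higher and Dcn and Col1a2 lower in the resistant pool. In that fit a probe set's variance came from a trend over all tested probe sets, not from its own arrays. The 5 endothelial markers were all under the filter and 3 of 7 leukocyte markers passed. The part of other cell types in the results below was not tested. In such bulk RNA, fewer cells of a type and less RNA per cell cannot be told apart.

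The cytosolic ribosome translates nuclear mRNAs. Its small subunit decodes the mRNA and its large subunit joins the amino acids, each built of ribosomal RNA and many proteins made in near-equal amounts. The mRNAs of these proteins are among the most abundant of growing cells. Most begin with a C followed by an unbroken run of C and T, the 5′ terminal oligopyrimidine (TOP) motif, through which their translation follows mTOR signalling and the repressor LARP1, largely without a change in mRNA level.

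The TOP motif marks where these genes begin, so the start windows of 6 members are shown. Rpl38 and Rps3a1 are among the 3 brightest members, while Rps27, Rpl39, Rpl37 and Rpl12 had the 4 largest differences between the populations. Each window holds the 30 bases before and the 20 bases from the RefSeq start on GRCm38.p6, 5′ to 3′ on the gene's own strand. Capitals mark the C nearest to the start, within 5 bases of it, that is followed by at least 4 further C or T, together with the C and T after it.
Rpl38: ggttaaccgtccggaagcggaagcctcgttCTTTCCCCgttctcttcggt
Rps3a1: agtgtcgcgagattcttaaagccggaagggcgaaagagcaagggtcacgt
Rps27: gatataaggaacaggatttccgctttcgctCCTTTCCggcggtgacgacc
Rpl39: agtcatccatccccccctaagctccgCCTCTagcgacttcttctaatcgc
Rpl37: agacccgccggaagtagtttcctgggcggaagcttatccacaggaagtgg
Rpl12: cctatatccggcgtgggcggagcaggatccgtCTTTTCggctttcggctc
The window of Rpl38 lies at chr11:114668550-114668599 on the plus strand and that of Rps3a1 at chr3:86142649-86142698 on the minus strand. Rps27 starts within chr3:90213629-90213678 and Rpl39 within chrX:37085203-37085252, both on the minus strand. Rpl37 starts within chr15:5116583-5116632 and Rpl12 within chr2:32961682-32961731, both on the plus strand. In Rpl38 and Rps27 the annotated start itself was such a C. Directly before it lie T letters in Rpl38 and a C and a T in Rps27. In both, the pyrimidine tract as a whole therefore begins upstream of the annotated start. No such run lay near the annotated starts of Rps3a1 and Rpl37, which says only that these letters are not in this window.

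The RefSeq promoter table, which covers 250 bases before and 50 after each start, held 41 of the 48 members. A C followed by at least 4 C or T, whether or not more pyrimidines precede it, lay within 5 bases of the start in 20 of the 41 (48.8%), against 18.5% of the 27025 genes of the table. The start itself was such a C in 8 members (19.5%), against 2.49% of all genes. The genes of the mitochondrial ribosome, whose proteins are also made in the cytosol, had one near the start in 15 of 69 and at the start itself in 0. The letters CCGGAAG, the core of sites bound by ETS factors such as GABP, occurred on either strand of the window in 20 of the 41 members (48.8%), against 9.12% of all genes. The YY1 core AAGATGG occurred in 6 of 41 (14.6%), against 6.48%. Neither was particular to the members: of the mitochondrial ribosome genes, 25 of 69 (36.2%) held CCGGAAG and 13 of 69 (18.8%) held AAGATGG. These matches may overlap one another and are descriptions of sequence.

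Ribosomal protein genes filled the top of the brightness scale. They were 11 of the 20 brightest genes that carry 1 symbol and 28 of the 50 brightest. The brightest was Rpl41, which encodes the shortest ribosomal protein, with signals of 16368.1 and 20165.5 on the resistant arrays, against 17119.7 and 19446.5 on the original arrays. Next came Rpl38, a large subunit protein needed in mice for the translation of some Hox mRNAs, and Rps3a1, a small subunit protein. The groups overlapped for Rpl41 and Rpl38. A signal depends on the probes as well as on the transcript, so this order is one of probe set brightness and not of mRNA copies.

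The 48 members fell into 3 ranges, drawn after their values were seen. The upper range held 35 genes with mean signals from 6941 for Rpl22l1 to 18275 for Rpl41. A gap followed, and 9 genes lay between 2011 for Rpl37 and 233 for Rpl39. For 8 of these 9, the array also holds a brighter probe set that lists the same symbol together with others, with mean signals of up to 17483.6, which names no gene here. The last 4 genes were under the filter on dim probe sets, a signal of 49.1, and were not tested. They were Rps15a-ps6 and 3 paralog forms, Rpl3l, Rpl39l and Rps4l.

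**Figure D1:**
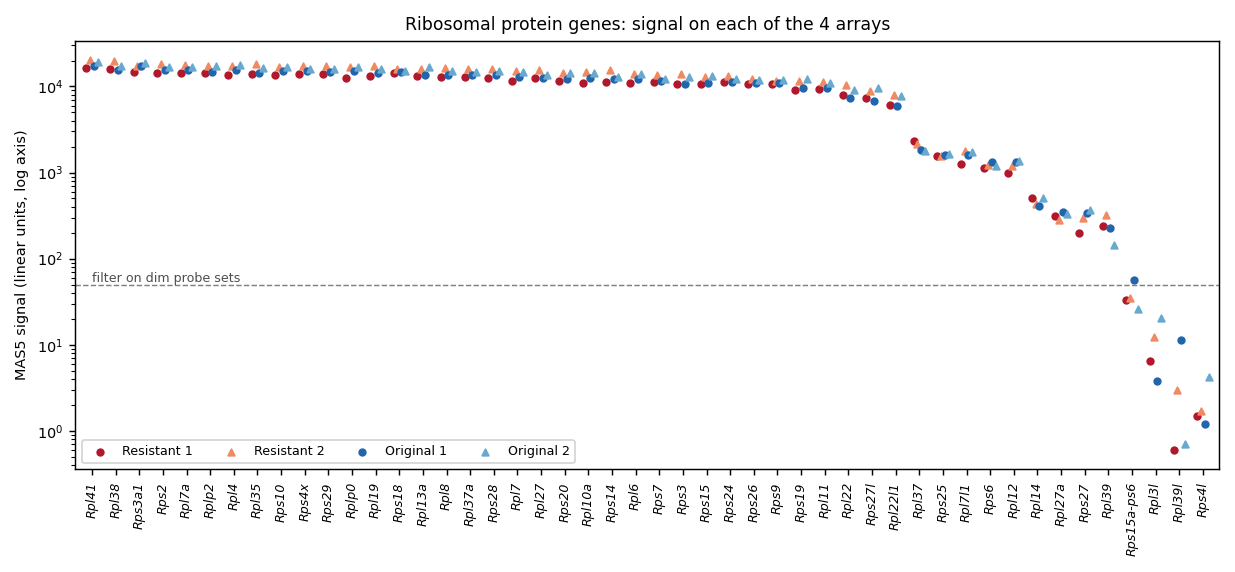
MAS5 signal (log axis) of each of the 48 ribosomal protein genes on the 4 arrays, in order of mean signal, with red points for resistant and blue for original arrays. The 35 genes at the left lie at mean signals of 6941 or more with the 4 arrays close together, and the last 4 genes lie under the dashed line of the filter.

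No ribosomal protein gene passed the test of the resistant pool against the original population over all probe sets. Of 44 tested members, 0 passed limma's test at an adjusted p under 0.05, where 0.169% of all 13576 tested probe sets passed (0.0589% with the resistant pool higher, 0.11% with it lower), and 0 also had an unadjusted p under 0.05, against 7.35% of all. The smallest adjusted p of a member was 0.726, for Rps27 (limma, Benjamini-Hochberg). With the replicate number as a block 0 members passed as well, where 5.23% of all did. The median log2 fold change over the members was -0.01, beside 0.00 over all tested probe sets, with 17 members above 0 and 27 below. Between members the standard deviation of the log2 fold change was 0.16, against 0.36 over all tested probe sets.

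The upper range was tighter still. Its 35 genes had log2 fold changes between -0.17 for Rps3a1 and 0.15 for Rpl22, with a standard deviation of 0.07 between genes. Over all 798 tested probe sets of a mean signal of 4000 or more that standard deviation was 0.18. As a set the 798 were dimmer, with a median signal of 6203.55 on Resistant 1, against 12604.1 for the 35 genes. The comparison is therefore not matched for brightness. Each fold change carried a standard error of 0.17 to 0.20, which covers the spread between arrays, including any shift the genes share; differences between genes were not tested. The 95% intervals of the 35 genes reached from -0.57, the lower bound of Rps3a1, to 0.58, the upper bound of Rpl22. As folds of resistant over original these bounds are 0.676 and 1.5. A change beyond them was outside every one of the 35 intervals, and single genes had narrower intervals, such as -0.42 to 0.34 for Rps9.

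**Figure D2:**
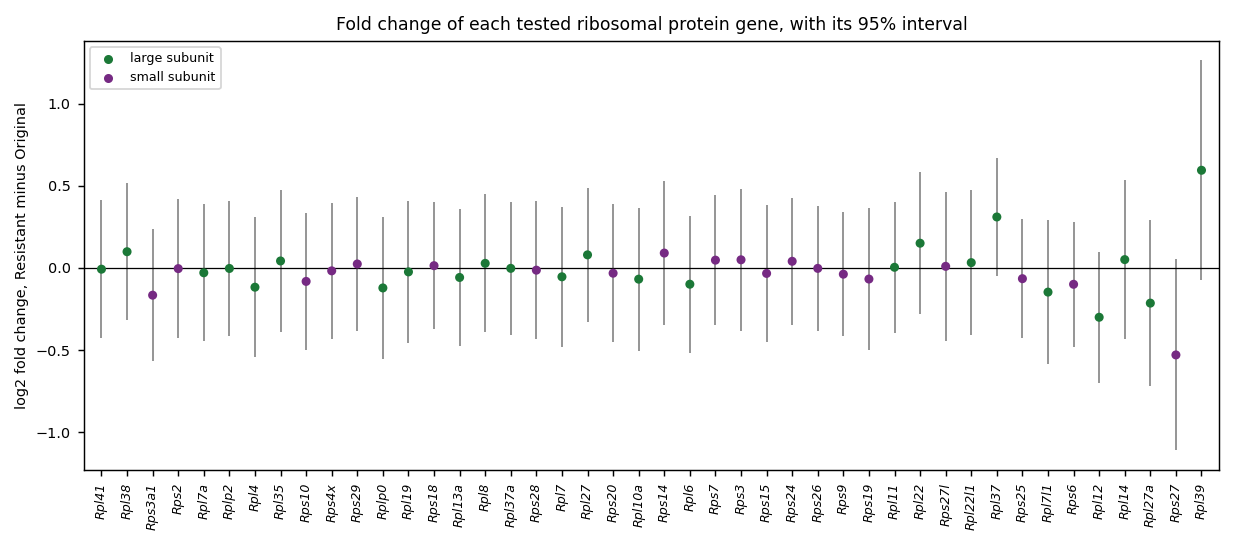
Log2 fold change (Resistant minus Original) of the 44 tested genes in order of mean signal, brightest at the left; bars are 95% intervals from limma. All 44 intervals include 0, and the points of the 35 brightest genes lie between -0.17 and 0.15.

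The large subunit genes had a median log2 fold change of -0.01 over 24 tested members and the small subunit genes -0.02 over 20, with 10 and 7 members above 0. Rplp0, which anchors the stalk where elongation factors dock, had signals of 12685.4 and 16702.7 on the resistant arrays, against 15063 and 16620.5 on the original arrays. Its stalk partner Rplp2 had 14503.9 and 17491.4 on the resistant arrays and 14911.9 and 17054.5 on the original arrays. Both overlapped between the groups, at log2 fold changes of -0.12 ± 0.194 and 0.00 ± 0.186 (SE).

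Among large subunit proteins with roles outside the ribosome, Rpl11 binds and inhibits MDM2, the ligase that degrades p53. Rpl11 had 10405 ± 1336 in the resistant pool and 10346 ± 967 in the original population (SD, n = 2 each), a log2 fold change of 0.00 ± 0.180 (SE). Rpl13a, which in human cells takes part in silencing inflammatory mRNAs, had signals of 13332.9 and 15856.8 on the resistant arrays, against 13712.1 and 16675.6 on the original arrays. Neither of them separated the populations. Mdm2 itself had 1151.5 and 1232.8 on the resistant arrays and 1035.2 and 1386.4 on the original arrays, and did not pass (limma adjusted p = 0.999). Of the 4 tested genes of the list for free ribosomal protein and p53, 0 passed.

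In the small subunit, Rps19, the gene most often mutated in human Diamond-Blackfan anaemia, had signals of 9211.8 and 11518.1 on the resistant arrays, against 9625.3 and 12081.9 on the original arrays. Rps14, whose loss underlies the anaemia of the human 5q- syndrome, had 11363.2 and 15676.1 on the resistant arrays and 12267.4 and 12783.9 on the original arrays. Rps3, which lines the mRNA entry channel, averaged 12366 ± 2228 in the resistant pool and 11889 ± 1540.3 in the original population (SD, n = 2 each). For all 3 genes the groups overlapped. Rps6, the protein phosphorylated by the S6 kinases, was read by a dimmer probe set, at 1123.7 and 1225.1 on the resistant arrays, against 1317.3 and 1197.8 on the original arrays, again overlapping (log2 fold change -0.10 ± 0.172 (SE), limma adjusted p = 0.975).

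Rps3a1 had the lowest fold change of the upper range. Its signals were 14821.7 and 17203 on the resistant arrays, against 17114.6 and 18713.1 on the original arrays. The groups overlapped, since Resistant 2 lay above Original 1. Rpl22, at the other end, had 8024.5 and 10381.4 on the resistant arrays, against 7400.9 and 9119.3 on the original arrays. Rpl22 binds RNA and is dispensable in most mouse tissues. Neither passed, with limma adjusted p = 0.934 for Rps3a1 and 0.952 for Rpl22. Of the other members of the upper range, Rpl4, a core protein whose loop reaches into the exit tunnel, had a log2 fold change of -0.12, Rpl6 -0.10, Rps10 -0.08, Rps14 0.09, Rpl27 0.08 and Rpl38 0.10. Rps7 had 0.05 and Rpl35 0.04, and the dimmer Rpl14 had 0.05, so that every tested member other than Rpl39 and Rpl37 had a log2 fold change of 0.15 or less.

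Paralog forms, some of which can replace their parent protein in some tissues, ranged from bright to under the filter. None of the 3 tested ones passed. Rpl22l1, the paralog of Rpl22, had signals of 6115.6 and 7926.3 on the resistant arrays, against 5958.9 and 7763.3 on the original arrays. Rps27l, a p53-induced paralog of Rps27, had 7385.3 and 8888.7 on the resistant arrays and 6768.2 and 9550.4 on the original arrays. Both overlapped between the groups, with log2 fold changes of 0.03 ± 0.199 and 0.01 ± 0.204 (SE). Rpl7l1, which in human cells serves in large subunit assembly, had 1259.8 and 1779.4 on the resistant arrays and 1579.3 and 1737.7 on the original arrays, also overlapping. The parent Rpl7 had 11702.3 and 15091.5 on the resistant arrays and 12930.1 and 14690.5 on the original arrays, and Rps4x, the parent of Rps4l, had 13809.2 and 17298.5 on the resistant arrays and 15138.7 and 16141.2 on the original arrays. Rpl3l, known for its place in muscle, lay between 3.8 and 20.2 on all 4 arrays, Rpl39l, known from the testis, between 0.6 and 11.3, and Rps4l between 1.2 and 4.2. At such signals no fold is given.

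The members with the largest differences were all in the dimmer range of 9 genes, where the groups did not overlap for 6 of 9. Over the 44 tested members the groups did not overlap for 6, or 13.6%, which is under the 36% of all tested probe sets. Of these, 2 were higher and 4 lower, beside 17.7% and 18.2% of all. In the upper range it was 0 of 35 genes, beside 24.7% of the tested probe sets with a mean signal of 4000 or more. The 6 were Rpl39 and Rpl37 on the higher side and Rps27, Rpl12, Rpl27a and Rps25 on the lower side. For each of these 6 the array also holds a brighter probe set that lists the symbol with others. Over all 97 tested probe sets that list a ribosomal protein symbol beside others, log2 fold changes ran from -0.46 to 0.25. None of them reached the values given below for Rpl39, Rpl37 and Rps27. Rps25 separated by little, with 1560.8 and 1549.5 on the resistant arrays and 1593.1 and 1659.1 on the original arrays.

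Rpl39, a small protein of the exit tunnel, had signals of 238.6 and 319.2 on the resistant arrays, against 228.4 and 144.3 on the original arrays. The groups stood apart mainly through Resistant 2 and Original 2. The log2 fold change was 0.59 ± 0.302 (SE), with a 95% interval from -0.08 to 1.26 (limma adjusted p = 0.739). Between arrays numbered 1 it was 0.06 and between arrays numbered 2 it was 1.13. It was 0.92 without Original 1 and 0.27 without Original 2.

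Rps27, a small subunit protein with a zinc finger, had 200.1 and 295.8 on the resistant arrays, against 335.9 and 369.3 on the original arrays. Resistant 1 was the lowest of the 4, and both original arrays lay above both resistant ones. The log2 fold change was -0.53 ± 0.262 (SE), with an interval from -1.11 to 0.05 (limma adjusted p = 0.726). It was -0.74 between arrays numbered 1 and -0.32 between arrays numbered 2, and -0.25 without Resistant 1 and -0.81 without Resistant 2.

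Rpl37, another large subunit zinc finger protein, had 2318.9 and 2137.5 on the resistant arrays, against 1822.3 and 1765 on the original arrays. All 4 arrays kept close to their group, and the log2 fold change was 0.31 ± 0.162 (SE; limma adjusted p = 0.745), at 0.35 and 0.27 between arrays of the same number. Rpl12, which sits at the base of the stalk, had 978 and 1206.5 on the resistant arrays and 1322.3 and 1351.7 on the original arrays. Its log2 fold change was -0.30 ± 0.180 (SE; limma adjusted p = 0.8), at -0.43 and -0.16 between arrays of the same number. Rpl27a had 311.6 and 278.3 on the resistant arrays, against 350.4 and 333.3 on the original arrays (log2 fold change -0.21). None of these 3 passed the test.

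Probe sets of the same gene differed far more in brightness than the populations did. The array reads 22 of the members with several probe sets. Rps18, a small subunit protein near the decoding site, had 6 tested probe sets with mean signals from 15038 down to 70.7. The 3 bright ones had log2 fold changes of 0.01, -0.05 and 0.02. A dim one, with 66.1 and 56 on the resistant arrays against 144.3 and 77.3 on the original arrays, gave -0.77 ± 0.403 (SE) and did not pass (limma adjusted p = 0.746). Over the 91 tested probe sets of all members 0 passed, with a median log2 fold change of 0.00, and 11 of the 19 genes with several tested probe sets had them on both sides of 0.

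**Figure D3:**
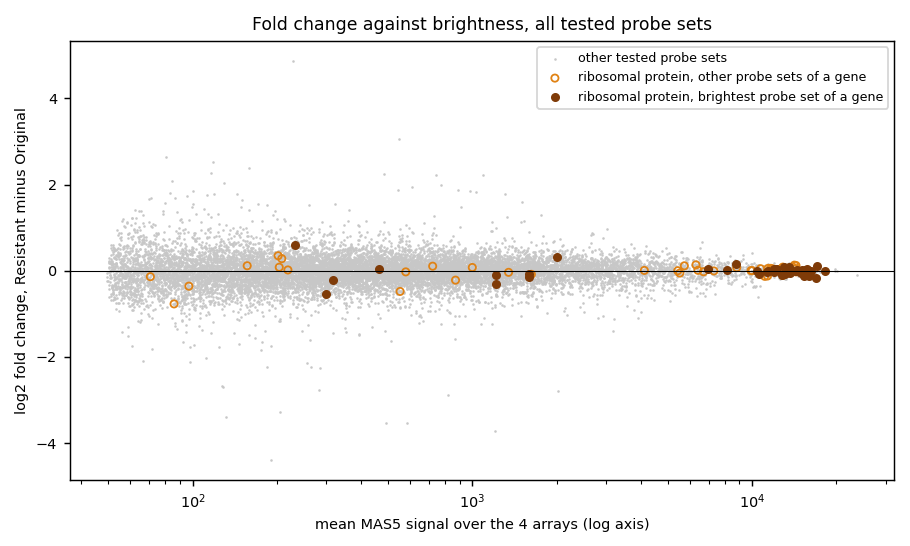
Log2 fold change (Resistant minus Original) against mean signal (log axis) for all 13576 tested probe sets in grey, with the brightest probe set of each ribosomal protein gene filled and its other probe sets open. The filled points cluster at the bright end close to 0, and the largest differences of ribosomal protein probe sets, among them the -0.77 of an Rps18 probe set and the 0.59 of Rpl39, lie at low signal.

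The members moved together between arrays of the same population. All 35 genes of the upper range were brighter on array 2 than on array 1 in both groups, and over the 44 tested members this held for 38 (86.4%), against 24.9% of all tested probe sets. The median log2 difference of array 2 minus array 1 was 0.31 over the members in the resistant pool and 0.15 in the original population, while over all tested probe sets it was -0.06 in each. In the upper range it ran from 0.12 for Rps9 to 0.47 for Rps14 in the resistant pool, and from 0.04 for Rps18 to 0.50 for Rps27l in the original population. These differences within a population were larger than the median difference of -0.01 between the populations.

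Bright probe sets of other genes shared part of this pattern. Of the 798 tested probe sets with a mean signal of 4000 or more, members included, 583 (73.1%) were brighter on array 2 in both groups. The spiked control BioB also differed by array number: its 3′ probe set had 86.6 on Resistant 1 and 181.6 on Resistant 2, and 87 on Original 1 and 183.3 on Original 2. A probe set for the 5′ part of 18S ribosomal RNA had 346.7 and 624.3 on the resistant arrays, against 362.4 and 4005.3 on the original arrays. Those for its other parts differed less. The 3′ one had 277.6 and 373.7 on the resistant arrays, against 269.3 and 834.9 on the original arrays. The middle one had 244.1 and 284 on the resistant arrays, against 254.1 and 408.3 on the original arrays. The part of these in the pattern was not tested. After quantile normalisation the members' medians of array 2 minus array 1 were 0.03 in the resistant pool and 0.01 in the original population, and 18 of 44 were brighter on array 2 in both groups. After cyclic loess the medians were 0.09 and -0.03, and the number was 13. Under these scalings the median difference between the populations stayed at 0.00 and -0.01.

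**Figure D4:**
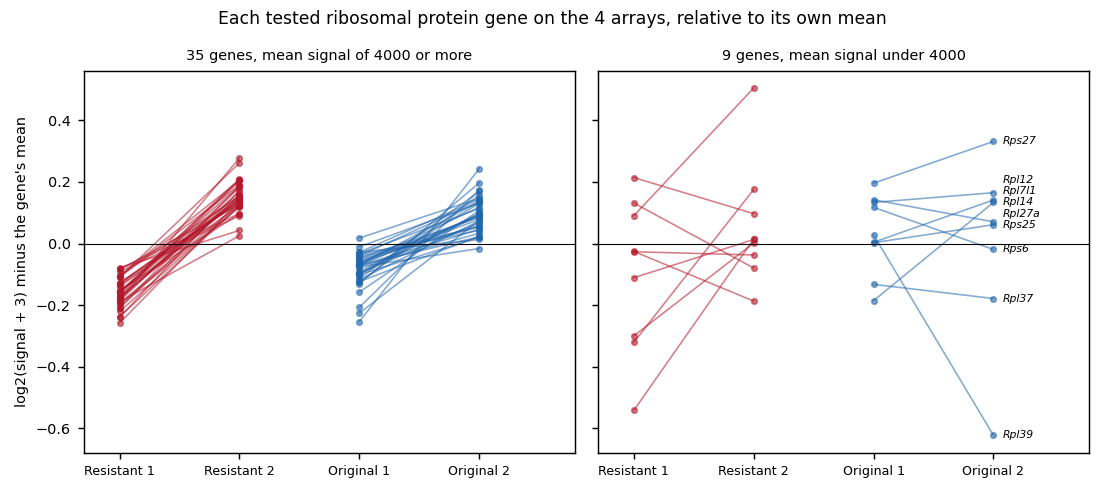
Log2(signal + 3) of each tested ribosomal protein gene on the 4 arrays, relative to the gene's own mean, with 35 genes of a mean signal of 4000 or more at the left and 9 dimmer genes at the right; lines join the 2 arrays of a population. All lines at the left climb to array 2 in both populations, while those at the right run both ways.

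The members' median difference between the populations changed its sign with the arrays compared. It was -0.06 between arrays numbered 1, with 37 of 44 members below 0, and 0.04 between arrays numbered 2, with 31 of 44 above 0. In 16 of 44 members both numbers gave the same sign. Over all 13576 tested probe sets, 6998 were below 0 between arrays numbered 1 and 6867 above 0 between arrays numbered 2. Both numbers gave the same sign in 7983 of them. The members' median was 0.13 without Resistant 1, -0.15 without Resistant 2, -0.10 without Original 1 and 0.07 without Original 2. All these medians of the members are smaller than the standard deviation of 0.20 between arrays of a population in the members' median level.

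Genes that work with the ribosomal proteins were set beside them. Rpsa and Fau, ribosomal protein genes whose symbols fall outside the rule, had log2 fold changes of -0.14 and -0.13. Rpsa, also known as the laminin receptor precursor, had signals of 13699.5 and 15782.4 on the resistant arrays, against 15050.9 and 17482.6 on the original arrays. Neither passed. Of 20 tested elongation factor and other TOP genes 0 passed, with a median of 0.02 and a range from -0.11 to 0.28. Eef1a1, which carries aminoacyl-tRNA to the ribosome, had 15325.3 and 20706.8 on the resistant arrays, against 18165.1 and 18904.6 on the original arrays. All 20 of these TOP genes were brighter on Resistant 2 than on Resistant 1, and 19 were brighter on Original 2 than on Original 1. Of the 798 tested probe sets with a mean signal of 4000 or more, 655 and 662 were so. Of all 13576 tested probe sets, 5913 and 5812 were.

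Genes that assemble ribosomes were read by dimmer probe sets than the TOP genes. Of 38 tested ribosome biogenesis genes 0 passed, with a median log2 fold change of 0.03 and 23 above 0. Nop10, a protein of the particles that pseudouridylate ribosomal RNA, had 5672.6 and 7146.7 on the resistant arrays, against 4503 and 4909.3 on the original arrays, without overlap (log2 fold change 0.44 ± 0.177 (SE), limma adjusted p = 0.605). With the replicate number as a block Nop10 passed (limma adjusted p = 0.0109), the only 1 of the 38 to do so. Bop1, which processes large subunit RNA, had 2039.8 and 3188.1 on the resistant arrays and 1886.3 and 1872 on the original arrays (0.44 ± 0.213 (SE), limma adjusted p = 0.712). Its difference lay mostly between the arrays numbered 2. The 14 tested genes of RNA polymerase I and its factors had a median of -0.03 and 0 passed.

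The mitochondrial ribosome, which translates the mitochondrial genome with a separate set of proteins, had 74 tested genes, a median of 0.06 and 0 that passed. The groups did not overlap for 39.2% of them, beside 13.6% of the cytosolic members and 36% of all tested probe sets. The mitochondrial genes were also dimmer, with a median signal of 1144.55 on Resistant 1, against 11321.4 for the cytosolic members. The difference in overlap was not tested. Regulators of TOP mRNAs and S6 had a median of 0.00 over 16 tested genes, and 0 passed. Mtor had 491.2 and 374.5 on the resistant arrays, against 475.8 and 414.6 on the original arrays, and Larp1 had 2024 and 2582.7 on the resistant arrays, against 2412.8 and 2539.2 on the original arrays. Both overlapped between the groups. Eif4e, the cap-binding protein, had 2810.1 and 3408.8 on the resistant arrays and 3779.2 and 4106.5 on the original arrays, without overlap (log2 fold change -0.35 ± 0.171 (SE), limma adjusted p = 0.717).

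**Figure D5:**
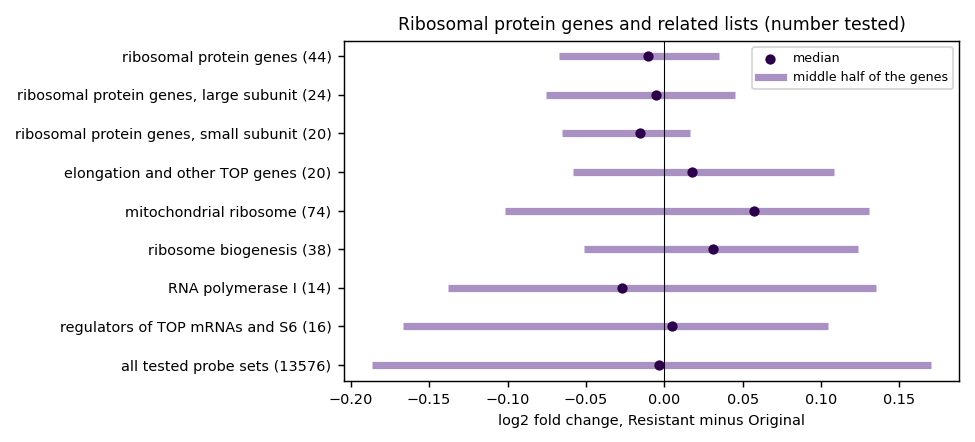
Median log2 fold change (Resistant minus Original, points) and the span between the lower and upper quartiles (bars) for the ribosomal protein genes, related gene lists and all tested probe sets, with the number tested in brackets. All medians lie between -0.03 and 0.06, and the bar of the ribosomal protein genes is narrower than that of all tested probe sets.

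Last, the members were divided by whether a C followed by at least 4 C or T lay within 5 bases of the start. Such a run was present in 18.5% of all genes, so the split is not one of TOP against other mRNAs. The 20 tested members with a run had a median log2 fold change of 0.00, and the 19 without one had -0.02. Their medians of array 2 minus array 1 were 0.29 and 0.32 in the resistant pool, and 0.14 and 0.15 in the original population. The arrays measure mRNA levels, and translation of these mRNAs was not measured.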

How the data were processed

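Linear intensities, made with MAS5 per the submitters' processing notes (no version given), were deposited for each probe set and array. The 2% trimmed mean of these intensities was 500.2 on all 4 arrays, so an overall difference in RNA amount cannot be seen. Median signals were 128.65 and 113.95 (Resistant) and 135.25 and 115.15 (Original). The number of arrays limits the precision. Groups were taken from the population given for each sample, and array numbers from the sample titles.

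Of 22690 probe sets, 64 array controls were left out. The platform annotation gave 1 symbol for 20380, several for 691 and none for 1555. Probe sets with several symbols named no gene, and 102 of these include a ribosomal protein symbol.

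Arrays were rescaled to a common 2% trimmed mean and log2(signal + 3) was taken, 3 being the rounded 10th percentile of signals. Fold changes refer to these log2 values and so understate changes of dim genes. Probe sets under the 40th percentile of mean log2 signal (a signal of 49.1) were left out, leaving 13576. limma 3.58.1 in R 4.3.3 (lmFit, eBayes with a mean-variance trend) gave two-sided p-values, adjusted by Benjamini-Hochberg over all of them at a threshold of 0.05. The procedure was tested on simulated data. Lists are described by counts and medians, with no test of a list.

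By rule, named members were those past the threshold, the 10 with the largest positive and the 10 with the largest negative fold change among those tested, the 3 brightest and 3 dimmest, paralogs with their parents, the stalk proteins and a set of well-studied genes. Rps9, Rps18, Rps20, Rps25, Rps15a-ps6 and the named genes of other lists were chosen after their values were seen. Members, lists and rules were chosen with earlier results of these data known. Sequences are from RefSeq (GRCm38.p6), matched by symbol, and a gene with several starts took the first listed. No label says that the replicate number pairs the arrays; the array 2 minus array 1 differences of the populations correlated at 0.352 over the 13576 probe sets, a description across features. Alternatives covered the pseudocount, the filter, the normalisation, the variance trend, the probe set taken for a gene, the replicate block and leaving out each array.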

Additional observations from a re-analysis of the deposited data

How the results depend on the processing

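In every alternative run, 0 ribosomal protein genes passed, and their median log2 fold change stayed within -0.15 to 0.13; without an array it ran from -0.15 to 0.13, and in the others from -0.03 to 0.00. With the replicate number as a block 0 of 44 passed, with a smallest adjusted p of 0.141 (Rpl39), where 5.23% of all probe sets passed. That fit has 1 residual degree of freedom, and limma estimated infinite prior degrees of freedom for it, against 8.3 without the block. Each probe set's variance was thus the value of the mean-variance trend, and its own spread between arrays was not used. Beyond the members, the block fit called 5 of 6 tested fibroblast markers and Nop10, which did not pass without the block. It called 710 of all probe sets, against 23 without the block. The count over all probe sets was also 8 after quantile normalisation, 9 after cyclic loess, 5 without the filter on dim probe sets, 10 with the filter at the 60th percentile and 0 without a variance trend (922 at an unadjusted p under 0.05), and 68 to 111 without 1 array. The cause was not tested. Of 654 values of single genes, 636 lay within 1 standard error of the reported value, 18 moved further, 0 passed and 82 had the other sign. Rpl39, Rps27, Rpl37, Rpl12, Rpl27a, Rps3a1, Rps25 and Rps6 kept their sign in all alternatives that measured them. Without probe sets marked for cross-hybridisation 39 members were measured, and the log2 fold change of Rpl41 was -0.48 and that of Rps20 0.35, from much dimmer probe sets. Precision is limited by 2 arrays in each group.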

Other observations

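The array holds 102 probe sets that list a ribosomal protein symbol beside others, and 28 ribosomal protein symbols appear only there. These probe sets name no gene here and took no part in the values of the members above. Of the 97 that passed the filter on dim probe sets, 0 differed between the populations, with a median log2 fold change of -0.02, a range from -0.46 to 0.25 and 7.22% without overlap between the groups. They also showed the movement between arrays: 75 of 97 were brighter on array 2 in both populations. The 48 members together took 2.88% and 3.39% of the summed signal on the resistant arrays, against 3.02% and 3.29% on the original arrays.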
